A study of Mus musculus with 4 samples.

Results

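Cytotoxic lymphocytes kill target cells by releasing preformed granules, and 9 transcripts grouped as cytotoxic granule genes were followed here: GZMA (granzyme A, ENSG00000145649), GZMB (granzyme B, ENSG00000100453), GZMH (granzyme H, ENSG00000100450), GZMK (granzyme K, ENSG00000113088), GZMM (granzyme M, ENSG00000197540), PRF1 (perforin, ENSG00000180644), GNLY (granulysin, ENSG00000115523), NKG7 (ENSG00000105374) and CTSW (cathepsin W, ENSG00000172543). They were chosen by name, as 9 of the 36601 gene features of each count matrix, and were described across natural killer (NK) cells, CD8 T cells, regulatory T cells, other T cells and plasmacytoid dendritic cells. The cells were human CD45+ cells sorted from tumors of the human breast carcinoma line MDA-MB-231, grown in the mammary fat pad of MISTRG mice. MISTRG mice carry human cytokine genes in place of the mouse ones on a background without mouse lymphocytes, and here they had been irradiated sublethally as pups and given human fetal liver CD34+ cells into the liver, so that every leukocyte counted had developed in a mouse host. The number of human donors behind the CD34+ cells was not given in the sources used here. Of 14 mice, 7 were untreated and 7 drank the drug maraviroc, dissolved at 300 mg/l, during the last 10 days before tumor collection on day 31.

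The mice were labelled with hashtag antibodies and pooled into 2 reactions of droplet 3′ sequencing with 7 hashtags each. The sample labels name the reaction alone, and the treatment of a mouse was read from the name of its hashtag (CTRL or MARAVIROC), which gave 4 untreated and 3 maraviroc mice in reaction 1 and 3 untreated and 4 maraviroc mice in reaction 2. A mouse is written below by reaction, treatment and number, for example R1-U4 for untreated mouse 4 of reaction 1. The median barcode had 2764 unique molecular identifiers (UMIs, counts of captured transcripts) in reaction 1, which held 29120 barcodes, and 10204.5 in reaction 2, which held 13582. The reactions shared 136 barcode sequences. Of 37806 barcodes with 601 to 6000 genes and a mitochondrial share under 12.5%, 19817 carried 1 hashtag and were kept, and 12316 hashtag doublets and 5673 negatives were left out. The reactions differed in this. Reaction 1 had 10174 doublets and 5554 negatives among 27645 such barcodes, and reaction 2 had 2142 and 119 among 10161.

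Granzymes are serine proteases that enter the target cell through pores formed by perforin and cleave substrates that lead to its death. Granulysin is a membrane-disrupting protein of the same granules, NKG7 is a granule membrane protein needed for efficient degranulation, and cathepsin W is a cysteine protease of NK and CD8 T cells whose substrates are less well known. Granzyme B is also made by plasmacytoid dendritic cells, the main producers of type I interferon, which are not killers of the classical kind.

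Cells were gated by raw UMIs of other genes, so that no member took part in its own classification. A T cell had at least 2 UMIs over CD3D, CD3E, CD3G and TRAC, and an NK cell had at least 2 UMIs over a list of NK receptors and adaptors (KLRF1, KLRC1, KLRD1, NCAM1, NCR1, SH2D1B, called the NK list below) with 0 over CD3D, CD3G and TRAC. CD8 T cells were T cells with CD8A or CD8B and no CD4 or FOXP3, and regulatory T cells had FOXP3 and no CD8A or CD8B. Other T cells had no CD8A, CD8B or FOXP3, and CD4 was neither required nor excluded. Plasmacytoid dendritic cells had at least 2 UMIs over LILRA4, CLEC4C, SMPD3, LRRC26, SCT and PTCRA. These gates held 745 NK cells, 1295 CD8 T cells, 1024 regulatory T cells, 2563 other T cells and 142 plasmacytoid dendritic cells. Macrophage-like cells (5401) and B cells (138) served as types that should lack cytotoxic granule transcripts, and the level there is called the background. A list of 4 macrophage genes (C1QA, C1QB, SPP1, LYZ) had transcripts in every gate, with a sum of 1763 CPM (the UMIs of the named genes relative to all UMIs of the gated cells) in NK cells of reaction 1 and 339.8 in those of reaction 2, 1877 and 195.5 in other T cells, 583 and 181 in CD8 T cells and 16360.0 and 11405 in macrophage-like cells. Keratins of the carcinoma line summed to between 4.05 and 62.9 CPM in the 5 gates.

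The gates for T cells did not exclude cells with NK list UMIs, and this bears on every comparison with them. Of 2725 cells with at least 2 NK list UMIs, 1980 (72.7%) also carried CD3D, CD3G or TRAC transcripts. At least 2 NK list UMIs were found in 908 other T cells (35.4%) and 696 CD8 T cells (53.7%), and 0 in 1354 other T cells (52.8%) and 460 CD8 T cells (35.5%). Other T cells with at least 2 held more TRDC, the constant region of the T-cell receptor delta chain (673 against 40.6 CPM), than those with 0. They also held more FCER1G (578 against 127 CPM) and less CD4 (15.1 against 154 CPM) and TRAC (130 against 479 CPM), with CD3E at 231 against 262 CPM. In CD8 T cells with at least 2, TRAC was 429 against 544 CPM in those with 0, CD3E 240 against 299 and FCER1G 193 against 64.8. Whether these cells are NK-lineage cells, T cells or undetected pairs of cells from the same mouse was not tested. The gates are therefore named by their rule. Tests of the members between types, by CXCL13 and for maraviroc were repeated without T cells that carry NK list UMIs. These repeats were added after the values were seen. They leave out the other T cells with the most GNLY (mean 11356 CPM at 2 or more NK list UMIs, 965 at 0). Differences from other T cells therefore change by the choice of cells, and the adjusted p-values of the repeats are descriptions. Co-detection, correlations, contrasts between the reactions and counts of pathway genes are given for the gates as drawn alone. Of the marker genes set beside the gates, KLRB1, IL2RB, XCL2 and CD7 were highest in NK cells, LAG3 in CD8 T cells and CD40LG in other T cells. Other markers of these gates were highest elsewhere. The NK markers FCER1G and TYROBP and the other T marker IL7R were highest in macrophage-like cells. Of the CD8 T markers, CRTAM was highest in NK cells, and TRBC2 and CD2 in regulatory T cells. The other T markers ICOS and CD5 were also highest in regulatory T cells.

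**Figure D1:**
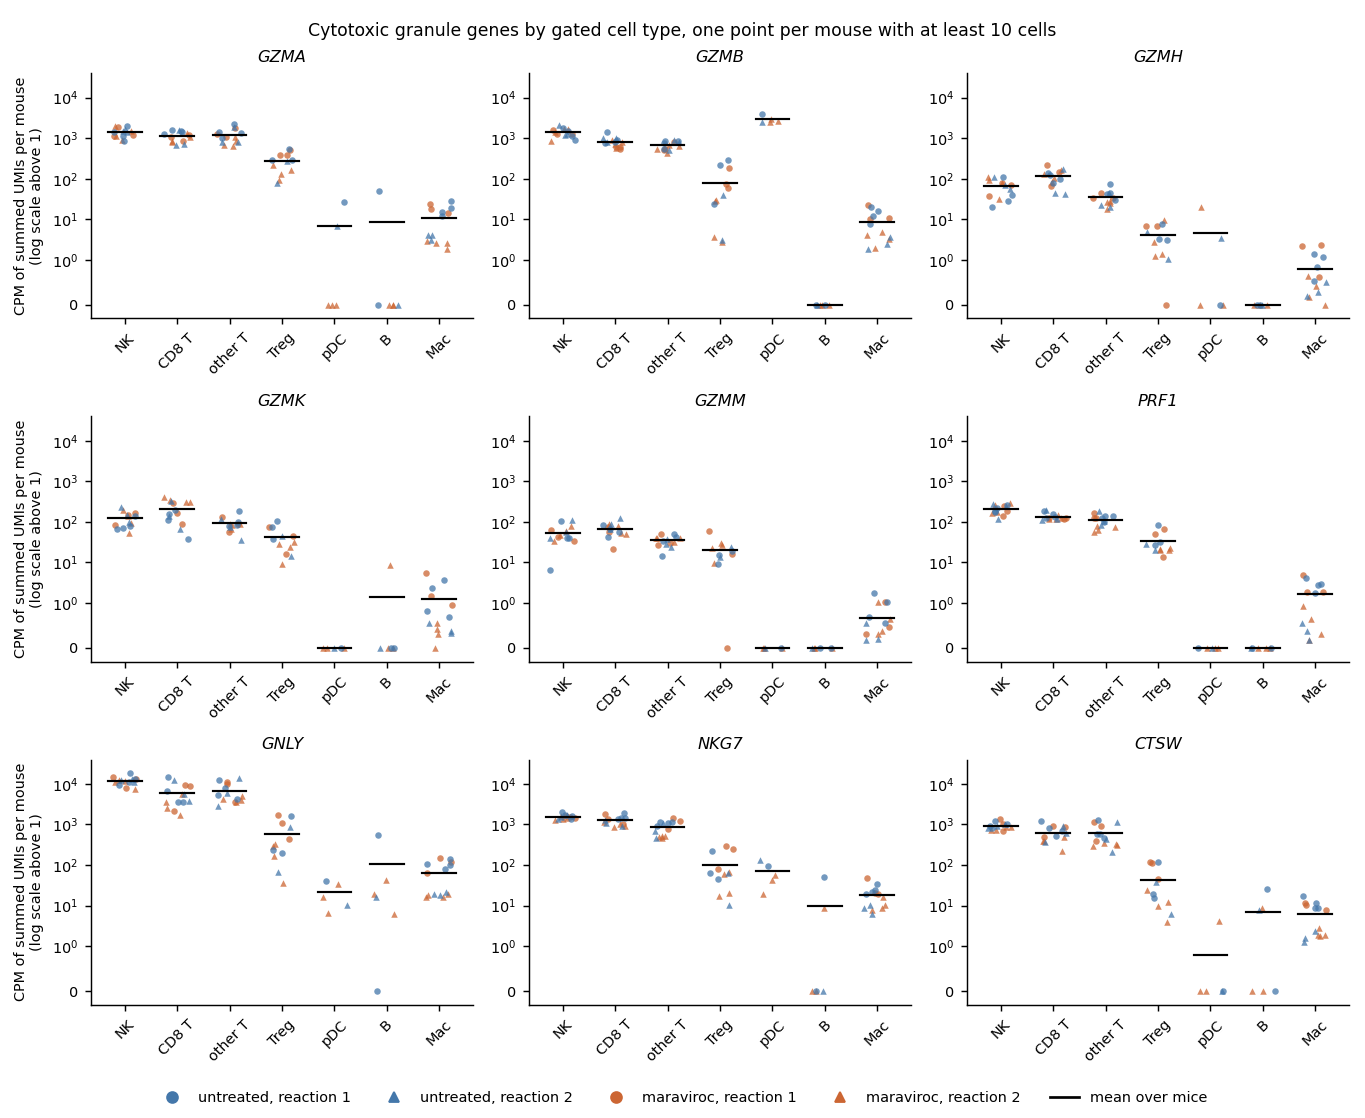
Level of each of the 9 genes (CPM of the gated cells; axis logarithmic above 1 and linear below) in each mouse with at least 10 cells of a type. Each point is a mouse, coloured by treatment and shaped by reaction, and bars are means: GZMB alone was highest in plasmacytoid dendritic cells (mean 2924 CPM), and the members sat far lower in regulatory T cells than in NK and CD8 T cells.

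GZMA levels overlapped between NK cells, CD8 T cells and other T cells and were far lower in regulatory T cells. All levels below are CPM of the UMIs summed over a mouse's gated cells, for mice with at least 10 such cells. They are 3′ counts and are compared between cell types for 1 gene, never between genes. GZMA, a tryptase made by many kinds of killer cell, had 1409 ± 374 CPM in NK cells (SD, n = 14 mice, lowest 874, median 1418, highest 2010), 1206 ± 489 in other T cells (n = 14, lowest 654, median 1064, highest 2248) and 1138 ± 314 in CD8 T cells (n = 14, lowest 691, median 1161, highest 1593). These 3 groups overlapped throughout, and NK cells were above other T cells in 8 of 14 mice. Regulatory T cells had 279.9 ± 153 CPM (n = 12, lowest 78.2, median 281, highest 542), below CD8 T cells in all 12 mice. Macrophage-like cells had 10.8 CPM and B cells 8.32.

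GZMB, the granzyme that activates caspases, was not highest in a killer lymphocyte. In the 5 mice with at least 10 plasmacytoid dendritic cells its level there was 3969.9 CPM in R1-U4, 2443 in R2-U2, 3047 in R2-M1, 2532 in R2-M2 and 2629 in R2-M4, a mean of 2924 ± 629 (SD, n = 5). NK cells had 1405 ± 345 CPM (n = 14, lowest 867, median 1368, highest 2102), so that the lowest mouse for plasmacytoid dendritic cells lay above the highest for NK cells. CD8 T cells had 817 ± 227 (n = 14, lowest 539, median 806, highest 1408) and other T cells 669.7 ± 156 (n = 14, lowest 442, median 675, highest 900.5). NK cells were above CD8 T cells in 12 of 14 mice and CD8 T cells above other T cells in 13 of 14. Regulatory T cells had 79.0 ± 94.8 CPM (n = 12, lowest 2.68, median 34.97, highest 284) and macrophage-like cells 8.77. After each cell was thinned at random to 1500 UMIs, shares of cells with GZMB were averaged over mice with at least 10 such cells. The mean share was 89.8% in plasmacytoid dendritic cells (n = 4 mice), 59.2% in NK cells (n = 14) and 1.92% in macrophage-like cells (n = 14). Over all thinned plasmacytoid dendritic cells it was 88.1% in reaction 1 (42 cells) and 84.4% in reaction 2 (96 cells).

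GZMH, GZMK and GZMM were highest in the CD8 T gate rather than in NK cells. GZMH, a chymotrypsin-like protease whose gene is a close relative of GZMB, had 115 ± 50.3 CPM in CD8 T cells (n = 14, lowest 42.2, median 116, highest 215) and 66.7 ± 31.4 in NK cells (n = 14, lowest 19.9, median 70.5, highest 109). Reads of GZMH and GZMB could be assigned to the wrong one of the pair where their sequences match, which was not tested. GZMK, a tryptase known from memory-type CD8 T cells, had 210.4 ± 118 CPM in CD8 T cells (n = 14, lowest 37.1, median 178, highest 400.5) and 122.5 ± 53.4 in NK cells (n = 14, lowest 53.8, median 117, highest 237).

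The groups overlapped for both genes, and CD8 T cells were above NK cells in 10 of 14 mice for GZMH and 11 of 14 for GZMK. GZMM, a granzyme that cleaves after methionine or leucine and is best known from NK cells, had 68.5 ± 25.2 CPM in CD8 T cells (n = 14, lowest 20.9, median 67.8, highest 126) and 54.1 ± 28.3 in NK cells (n = 14, lowest 6.65, median 44.7, highest 111). The ranges overlapped almost fully, and CD8 T cells were above NK cells in 10 of 14 mice. CD8 T cells were 6.53% of the kept cells and held 45.3% of the GZMH UMIs and 40.9% of the GZMK UMIs. In other T cells GZMH averaged 34.8 CPM, GZMK 92.1 and GZMM 34.9, and in regulatory T cells 4.06, 42.04 and 20.6.

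PRF1 and GNLY, which encode the pore-forming protein and the membrane-disrupting protein, were both highest in NK cells. PRF1 had 210.1 ± 55.2 CPM in NK cells (SD, n = 14, lowest 116, median 204.5, highest 297.5), 135.5 ± 27.01 in CD8 T cells (n = 14, lowest 109, median 123, highest 198) and 111 ± 38.8 in other T cells (n = 14, lowest 56.7, median 113, highest 183.5). The groups overlapped, yet NK cells lay above CD8 T cells of the same mouse in 13 of 14 mice. GNLY had 12007 ± 2902 CPM in NK cells (n = 14, lowest 7515, median 12047, highest 19089.5), 6722 ± 3667 in other T cells (n = 14, lowest 2866, median 5172, highest 14022) and 6050.1 ± 3991 in CD8 T cells (n = 14, lowest 1742, median 4773, highest 14910.1). The spread between mice was wider in both T gates than in NK cells. Regulatory T cells had 33.8 ± 21.4 CPM of PRF1 and 592 ± 597 of GNLY (n = 12), with 1.68 and 63.3 in macrophage-like cells.

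NKG7 and CTSW followed the same order from NK cells down to regulatory T cells. NKG7 had 1550.1 ± 186 CPM in NK cells (SD, n = 14, lowest 1262, median 1556, highest 1987), 1266 ± 325 in CD8 T cells (n = 14, lowest 878, median 1237, highest 1867) and 857 ± 339 in other T cells (n = 14, lowest 452, median 848, highest 1473). CD8 T cells were above other T cells in all 14 mice. CTSW had 929 ± 193 CPM in NK cells (n = 14, lowest 675, median 886, highest 1339), 633 ± 273 in CD8 T cells (n = 14, lowest 227, median 565, highest 1193) and 604 ± 360 in other T cells (n = 14, lowest 213, median 454, highest 1281). NK cells lay above CD8 T cells of the same mouse in all 14 mice, although the groups overlapped. In regulatory T cells NKG7 had 98.9 ± 96.1 CPM and CTSW 43.9 ± 46.1 (n = 12), against 18.3 and 6.37 in macrophage-like cells.

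How the killer cell types differed from each other was tested on sums of raw UMIs per mouse and type, with the mouse as a block, by edgeR's quasi-likelihood test with Benjamini-Hochberg adjustment over 10394 genes. All contrasts between types came from 1 fit of 59 sums and share the sums of NK, CD8 T and other T cells, so their results are not independent of each other. The test treats each mouse as a replicate, and the mice shared reactions and may share human donors. The p-values therefore measure how the differences between types vary over the mice of these pools. All 5 types share 1 estimate of that spread, and plasmacytoid dendritic cells supply 5 of the 59 sums.

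NK cells held more GNLY, GZMB, CTSW and PRF1 than the CD8 T gate, and less GZMH and GZMK. GNLY was higher by 1.27 ± 0.25 on the log2 scale (SE, adjusted p = 8.68e-05 in edgeR's quasi-likelihood test), GZMB by 0.79 ± 0.23 (0.0083), CTSW by 0.66 ± 0.16 (0.00151) and PRF1 by 0.61 ± 0.15 (0.00195). GZMH (-0.82 ± 0.21, adjusted p = 0.00252) and GZMK (-0.82 ± 0.23, 0.00602) were lower. GZMA (0.32), NKG7 (0.34) and GZMM (-0.38) did not pass the threshold of 0.05. Thus 4 of 9 members were higher and 2 lower, where 11.5% of all genes tested were higher and 7.84% lower, and the median log2 fold change was 0.34 for the members and -0.02 for all genes. With T cells that carried no NK list UMI, GZMM (-1.06, adjusted p = 0.00277) and NKG7 (0.61, 0.0453) also passed in edgeR's test. In the 7 untreated mice alone 0 members passed, with GNLY at 1.01 and GZMB at 0.54, and with DESeq2 GZMB missed the threshold (adjusted p = 0.055). In reaction 1 alone GZMK (-0.52) and CTSW (0.40) lost their calls, in reaction 2 alone GZMH (-0.56), and with 0 myeloid UMIs GZMK (-0.69, adjusted p = 0.061 in edgeR's test).

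Against other T cells, 6 of 9 members were higher in NK cells, where 5.83% of all genes were, with a median of 0.93 for the members and -0.01 for all genes. These were GZMB (1.06 ± 0.23), GNLY (0.996 ± 0.24), NKG7 (0.95 ± 0.16), GZMH (0.95 ± 0.22), PRF1 (0.93 ± 0.15) and CTSW (0.79 ± 0.16), with adjusted p between 5.28e-06 for PRF1 and 0.0026 for GNLY by edgeR's quasi-likelihood test. GZMA, at 0.28, GZMK, at 0.38, and GZMM, at 0.55, did not pass. GZMM did pass with DESeq2 (0.61, adjusted p = 0.0407). In edgeR's test it passed without the count filter (0.47, adjusted p = 0.0373), in reaction 2 alone (0.73, 0.0483) and with gate lists at 3 UMIs (0.64, 0.0373). Against other T cells without any NK list UMI, GZMA (1.16, adjusted p = 6.74e-08) and GZMM (0.91, 0.0102) were also higher in edgeR's test. That gate was added after the values were seen. It leaves out the other T cells with the most GZMA (mean 1624 CPM at 2 or more NK list UMIs, 628 at 0), so a larger difference followed from the choice of cells. In reaction 1 alone 3 members passed, and in the untreated mice alone 2 did.

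The CD8 T gate differed from other T cells by 3 granzymes and NKG7. GZMH was higher by 1.76 ± 0.19 (adjusted p = 8.4e-10, edgeR's quasi-likelihood test), GZMK by 1.21 ± 0.20, GZMM by 0.93 ± 0.18 and NKG7 by 0.60 ± 0.16, so that 4 of 9 members were higher where 3.43% of all genes were. The members' median was 0.32 and that of all genes 0.00. GZMA (-0.05), GZMB (0.26), PRF1 (0.32), GNLY (-0.27) and CTSW (0.13) did not pass. When T cells with any NK list UMI were left out, all 9 members were higher in CD8 T cells, among them PRF1 by 2.07, CTSW by 1.59, GNLY by 1.32, GZMB by 1.23 and GZMA by 0.85 (adjusted p at most 0.00297 for these 5 in edgeR's test). This choice of cells was also made after the values were seen. In reaction 1 alone only GZMH passed.

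**Figure D2:**
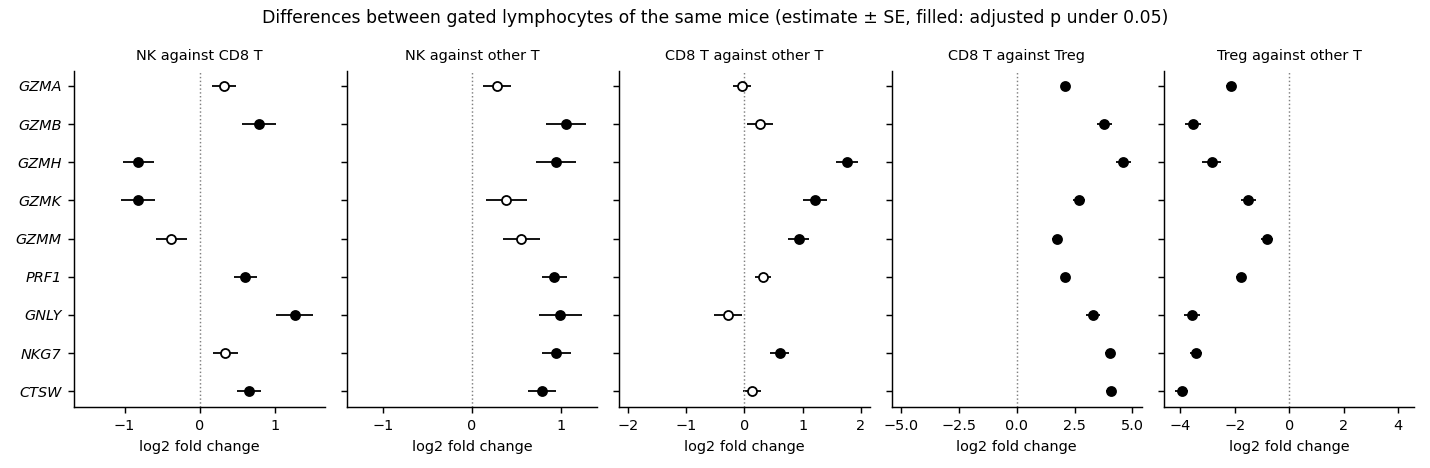
Log2 fold change of each gene between cell types (estimate ± SE from edgeR's quasi-likelihood fit of 59 sums per mouse and type; each panel has its own axis range). Filled points passed an adjusted p of 0.05, and a reader should see GZMH and GZMK on the CD8 T side of the NK against CD8 T panel while GNLY, GZMB, CTSW and PRF1 lie on the NK side.

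The NK list divided both T gates into cells with different granule transcripts. This division was made after the values were seen, and the levels of its parts are given without a test. Other T cells with at least 2 NK list UMIs came close to the NK gate in GNLY (11356 ± 2584 CPM, SD over mice), GZMA (1624 ± 475), GZMB (1211 ± 429), CTSW (974.6) and PRF1 (185 ± 30.6). Other T cells with 0 NK list UMIs still carried GZMA (628 ± 244 CPM) and GNLY (965 ± 870), and had 183 ± 83.3 CPM of GZMB, 36.6 of PRF1, 201 of NKG7 and 124 of CTSW.

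Within the CD8 T gate the granzymes divided in opposite directions. Cells with 0 NK list UMIs had 424 ± 210 CPM of GZMK, 190.1 ± 136 of GZMH and 98.0 of GZMM, against 112 ± 65.7, 73.9 and 49.8 in cells with at least 2. For GZMB the order was turned, with 431 CPM in cells with 0 and 955 in cells with at least 2. GNLY went the same way as GZMB (2139.9 against 7304 CPM), as did CTSW (269.8 against 758), whereas PRF1 had nearly the same level in both (134 and 136).

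**Figure D3:**
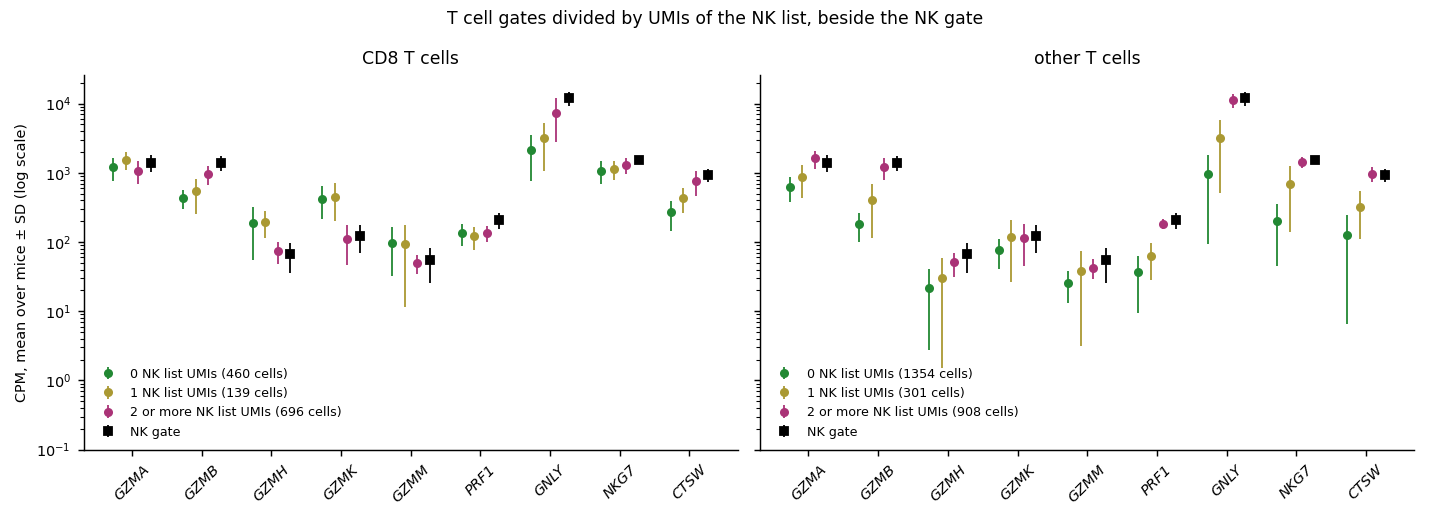
Level of each gene (CPM, logarithmic axis, mean ± SD over mice) in other T cells and CD8 T cells divided by their UMIs over the NK list (0, 1, or at least 2), beside the NK gate; a lower bar is cut at 5% of the mean where the SD exceeds the mean. In the CD8 T gate GZMK had 424 CPM at 0 NK list UMIs and 112 at 2 or more, while GZMB had 431 and 955.

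Regulatory T cells, which restrain other lymphocytes, held less of every member than the CD8 T gate and the other T gate. CD8 T cells were higher than regulatory T cells for 9 of 9 members, where 19.9% of all genes tested were, and the median was 3.30 for the members and 0.03 for all genes. The differences ran from 1.75 ± 0.22 for GZMM to 4.61 ± 0.31 for GZMH on the log2 scale, with CTSW at 4.08 ± 0.23, NKG7 at 4.01 ± 0.21, GZMB at 3.79 ± 0.31 and PRF1 at 2.09 ± 0.19 (adjusted p at most 6.66e-09, edgeR's quasi-likelihood test). Against other T cells, all 9 members were lower in regulatory T cells, where 20.8% of all genes were. The largest differences were those of CTSW (-3.95), GNLY (-3.57), GZMB (-3.53) and NKG7 (-3.41), and the smallest those of GZMK (-1.496) and GZMM (-0.82). The median was -2.85 for the members and -0.04 for all genes. Without T cells that carried NK list UMIs, 7 of 9 stayed lower, while PRF1 (-0.28, adjusted p = 0.487) and GZMM (-0.42, 0.327) no longer passed in edgeR's test.

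The levels in regulatory T cells differed between the reactions, as did the background. GZMB averaged 140 ± 103 CPM in the 6 mice of reaction 1 and 17.9 ± 16.7 in the 6 of reaction 2, GNLY 886 and 298, GZMA 399 and 160, and NKG7 157 and 40.4. Between the reactions, 5 members were lower in reaction 2 (GZMB by -2.68 ± 0.56, CTSW by -2.01, NKG7 by -1.85, GZMA by -1.35 and PRF1 by -1.04, adjusted p between 0.00358 and 0.0273 in edgeR's test), where 4.71% of all genes were. The background in macrophage-like cells moved the same way, with 108 and 18.4 CPM of GNLY, 14.4 and 3.18 of GZMB, 18.5 and 3.03 of GZMA and 26.8 and 9.77 of NKG7. Its part in the difference was not tested. At 1500 UMIs a cell, GZMB was detected in 7.30% (95% binomial interval 4.52 to 11.05) of regulatory T cells of reaction 1 and 1.64% (0.851 to 2.85) of those of reaction 2, against 2.80% and 0.613% of macrophage-like cells. GNLY was detected in 23.4% and 10.1% of regulatory T cells, against 15.1% and 2.81% of macrophage-like cells and 14.7% (4.95 to 31.1) and 4.21% of B cells. Intervals cover counting error alone.

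Among the other types, NK cells had 0 members called between the reactions, where 9.74% of all genes were. Of the members, CTSW (-0.78 ± 0.23) and NKG7 (-0.59 ± 0.12) were lower in reaction 2 in CD8 T cells, where 7.91% of genes were lower, and NKG7 (-0.90 ± 0.17), GZMH (-0.75 ± 0.21) and PRF1 (-0.58 ± 0.19) in other T cells, where 12.6% were. In plasmacytoid dendritic cells reaction 1 supplied 1 mouse of 10 cells and 2 members were tested; 0 of these and 0% of genes were called, which gives no reading of a difference between the reactions.

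Plasmacytoid dendritic cells carried GZMB with few or none of the other granule transcripts. In the 5 mice with at least 10 of these cells, GZMB had 2671 UMIs among 972215, or 2747 CPM, against 1370.5 CPM in NK cells of the same mice. It was higher than in NK cells by 1.29 ± 0.32 (adjusted p = 0.000654, edgeR's quasi-likelihood test) and higher than in other T cells by 2.34 ± 0.31 (8.5e-09). The other 8 members were lower in both contrasts. Thus 1 member was higher and 8 lower against NK cells, where 19.8% of genes were higher and 25% lower, and 1 higher and 8 lower against other T cells, where 19.9% were higher and 27% lower. In the untreated mice alone, GZMB against NK cells had 1.15 with an adjusted p of 0.0781 in edgeR's test. Against other T cells without NK list UMIs, NKG7 (-0.60, adjusted p = 0.289) and GZMH (-1.56, 0.176) were not called in edgeR's test.

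How low PRF1 lay beside GZMB could be read only down to the depth of these cells. PRF1 had 0 UMIs in the plasmacytoid dendritic cells of these 5 mice and 303 in their NK cells, which makes it at least 62.5-fold lower when 3 counts over the group are taken as the floor. On the same floor GZMK was at least 29.1-fold lower and GZMM at least 16.5-fold lower than in NK cells. GNLY (18.5 CPM) and GZMA (4.11 CPM) lay at the macrophage-like background there, so their folds are lower bounds: by the lower limit of the 95% counting interval, GNLY was at least 347-fold and GZMA at least 106-fold lower. NKG7 was 19.6-fold lower (15.5 to 25.2) and GZMH 15.6-fold (5.92 to 58.4). CTSW rested on 1 UMI, with a ratio of 806 (144 to 31860). The members' median fitted log2 fold change was -8.02 against NK cells and -7.49 against other T cells, where all genes had -0.19 and -0.20, but fitted values of genes at 0 are no bounds. With the 3 genes at 0 set to their bound, the median log2 ratio of the summed UMIs of these 5 mice fell on such a bound, that of GZMK (-4.86) against NK cells and that of PRF1 (-4.61) against other T cells.

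Over all 142 plasmacytoid dendritic cells, PRF1 was found as 2 UMIs in 1 of 45 cells of reaction 1 and in 0 of 97 cells of reaction 2, which allows a share of cells with a UMI of up to 3.09% (3 counts) and says nothing of cells that express PRF1 undetected. By thinned shares GNLY was near the background: 23.8% (12.1 to 39.5) and 2.08% (0.253 to 7.32) of plasmacytoid dendritic cells in the 2 reactions had it at 1500 UMIs, against 15.1% and 2.81% of macrophage-like cells. In CPM over all cells of reaction 1 it was 210.8 (166 to 263), above macrophage-like cells (106.4, 102 to 111) and level with B cells (210.7, 146 to 294). In reaction 2 it was 15.1 CPM, against 18.6 and 17.1. NKG7 was above the background, with 30.95% (17.6 to 47.1) and 13.5% (7.41 to 22.0) of cells at 1500 UMIs against 5.59% and 1.37% of macrophage-like cells. NKG7 had 95.5 CPM in R1-U4, 133 in R2-U2, 43.6 in R2-M1, 19.6 in R2-M2 and 56.9 in R2-M4. These values overlapped those of regulatory T cells, which were higher than plasmacytoid dendritic cells of the same mouse in 3 of 5 mice. Per 100 GNLY UMIs, plasmacytoid dendritic cells had 44.2 and 472 NKG7 UMIs in the 2 reactions, whereas NK cells had 13.7 and 13.2 and macrophage-like cells 25.04 and 50.1. Plasmacytoid dendritic cells were 0.717% of the kept cells and held 11.4% of the GZMB UMIs.

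Whether granule transcripts went with proliferation or with CXCL13 was examined inside gates, by genes outside the list. NK cells with at least 2 UMIs over MKI67 and TOP2A, genes of dividing cells, were set against NK cells with 0 in 9 mice. GZMA had 1558 CPM in cycling and 1155 in other NK cells and was higher in 7 of 9 mice (0.43 ± 0.15 on the log2 scale, adjusted p = 0.0391, edgeR's quasi-likelihood test), the 1 member of 9 called, where 8.99% of genes were higher. The members' median was -0.15 and that of all genes -0.06. This call was lost in reaction 1 alone (0.27), reaction 2 alone (0.69) and the untreated mice alone (0.31), without the mouse block (0.43), with clear hashtags alone (0.093), with gate lists at 3 UMIs (0.37) and with macrophage UMIs kept at 0 (0.60), all with the same sign. When cells with NK list UMIs and T-cell receptor transcripts were counted as NK cells, 7 members were called, with GZMA higher and GZMM (-1.03), GNLY (-0.49), PRF1 (-0.38), GZMB (-0.34), CTSW (-0.29) and NKG7 (-0.27) lower.

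CXCL13, a B-cell attracting chemokine made by T follicular helper-like and exhausted T cells, divided other T cells in 11 mice. All 9 members were lower in cells with CXCL13, where 7.06% of genes were, from GNLY (-2.65 ± 0.23, adjusted p = 2.1e-09, edgeR's quasi-likelihood test) to GZMA (-0.76 ± 0.19, 0.0053). GNLY averaged 1460.5 CPM in cells with CXCL13 and 6444.5 in cells without. The median was -1.47 for the members and -0.04 for all genes. GZMH passed narrowly (-1.01 ± 0.33, adjusted p = 0.0414 in edgeR's test) and lost its call in reaction 1 alone (0.912) and in 7 further alternatives, with an adjusted p between 0.0505 (above 1000 genes) and 0.385 (0 myeloid UMIs). Among other T cells without NK list UMIs, GZMK, GZMB and GZMM were called lower, and GZMH was not among the genes tested. GNLY (-0.69), NKG7 (-0.39), PRF1 (-0.30) and GZMA (-0.10) were not called there, and CTSW had 0.74 (adjusted p = 0.14 in edgeR's test).

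Members were also compared within single cells, as the share of cells with a second gene among cells with and without a first, after thinning to 1500 UMIs. These shares are descriptions, since cells of a mouse share a library and differ in type within a gate. In NK cells GZMB was found in more of the cells with GZMA than of those without (70.1% against 45.4%, a difference of 24.7 percentage points, SD 12.4, positive in 12 of 12 mice). GNLY was likewise more frequent with GZMB (17.0 points, SD 12.8, 11 of 12 mice), and so was PRF1 (14.5 points, SD 13.4, 10 of 12).

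GZMK stood in a different relation to GZMB in the 2 gates as they were drawn. The CD8 T gate mixed cells with 0 and with at least 2 NK list UMIs, which had 424 and 112 CPM of GZMK and 431 and 955 of GZMB. Co-detection was not repeated without the cells that carry NK list UMIs, and the part of this mixture in the shares was not tested. In CD8 T cells GZMB was less frequent in cells with GZMK (-10.5 points, SD 12.8, negative in 7 of 9 mice), and in NK cells more frequent (13.2 points, SD 6.47, 4 of 4 mice). In CD8 T cells GZMH was more frequent with GZMK (15.1 points, SD 8.24, 9 of 9 mice) and GNLY less frequent (-6.70 points, positive in 3 of 9). GZMB and GNLY went together in CD8 T cells as in NK cells (24.5 points, SD 10.99, 12 of 12 mice). For PRF1 with GZMK the mice spread widely in NK cells (2.55 points, SD 28.4, positive in 2 of 4 mice, and 38.0 points when thinned to 1000 UMIs), so no relation can be read there, and in CD8 T cells the difference was 5.11 points (SD 13.3, positive in 4 of 9).

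**Figure D4:**
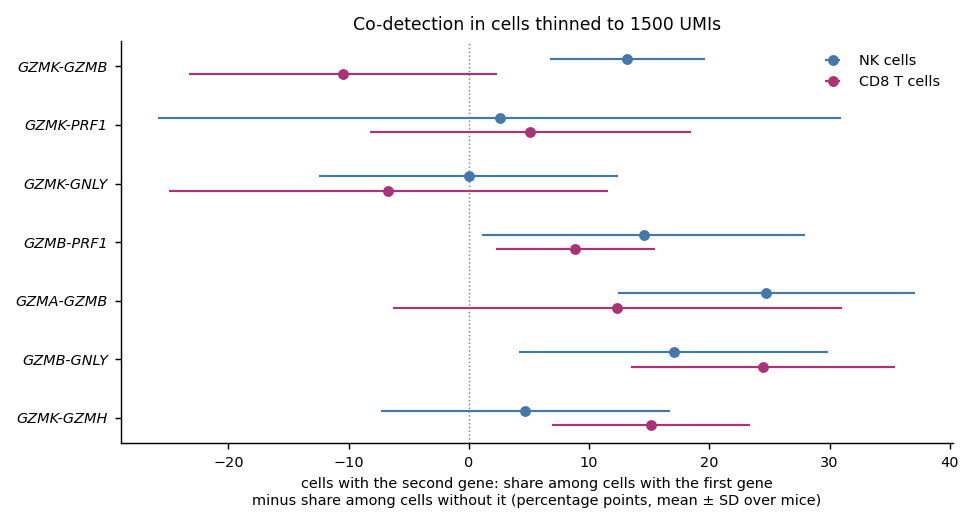
Difference in the share of cells with the second gene of a pair between cells with and without the first (percentage points, mean ± SD over mice, at 1500 UMIs a cell) in NK cells and CD8 T cells. GZMK with GZMB lies above 0 in NK cells (13.2) and below it in CD8 T cells (-10.5).

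Across the 59 sums of mouse and type, the genes whose log2 CPM resembled each member most were found among 9170 genes. These correlations share mice, libraries and depth and are given without a test. CTSW was most like HOPX, a transcription cofactor of effector lymphocytes (Pearson's r = 0.982), and so was GNLY (0.972). GZMA was most like SAMD3 (0.949), NKG7 like KLRK1, which encodes the activating receptor NKG2D (0.955), PRF1 like APOBEC3G (0.944), GZMK like PLAAT4 (0.945), GZMM like SCML4 (0.926), GZMH like TRGC1, a constant region of the T-cell receptor gamma chain (0.883), and GZMB like SLAMF7, a surface receptor of NK and plasma cells (0.926). Among the members, GNLY and CTSW had r = 0.979 and GZMA and PRF1 0.948. GZMB stood apart, with 0.04 to GZMK, -0.02 to GZMM, 0.13 to PRF1 and 0.64 to NKG7, over sums that include the 5 of plasmacytoid dendritic cells.

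The wider granule pathway was followed with 43 further genes, for granule matrix and processing, inhibitors, transport and fusion, other effector molecules and transcription factors. In NK cells against CD8 T cells 13 of these were higher and 8 lower, where 1197 and 815 of all 10394 genes were, with XCL1 (0.99) and XCL2 (0.97), chemokines that attract dendritic cells, and CTSL (1.01) higher, and IKZF2 (-1.57), TNF (-0.94) and the granule tether SYTL2 (-0.82) lower. In NK cells against other T cells 13 were higher and 4 lower (606 and 817 of all genes), with EOMES (0.98), a T-box factor of killer cells, and the death ligand FASLG (0.86) among the higher. In CD8 T cells against other T cells 11 were higher and 4 lower (356 and 949 of all genes), with CCL5 (0.88), the granule cystatin CST7 (0.84) and FASLG (0.81) leading, and CTSL (-1.61) lowest. The sum of the 4 macrophage genes was also lowest in CD8 T cells in reaction 1 (583 CPM, against 1763 in NK and 1877 in other T cells). In reaction 2 it was 181, 339.8 and 195.5 CPM. The part of macrophage transcripts in the values of CTSL was not tested.

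Against regulatory T cells, CD8 T cells had 7 of 10 listed transcription factors higher and 2 lower, and 1 of 5 granule matrix and processing genes higher and 3 lower. In this comparison CD8 T cells had 20 of the 43 genes higher and 12 lower (2068 and 1807 of all genes), with EOMES (6.08), ZNF683 (5.06) and HOPX (4.74) highest, while CTSC (-1.85), which encodes the protease that activates granzymes, PRDM1 (-1.59) and CTSL (-1.14) were lowest. In regulatory T cells against other T cells 8 were higher and 18 lower (1706 and 2158 of all genes), with CTSC (1.62), IKZF2 (1.60) and PRDM1 (1.60) highest. Plasmacytoid dendritic cells, with GZMB as their 1 higher member, were higher than NK cells for 9 of these genes and lower for 26 (2058 and 2603 of all genes), and higher than other T cells for 9 and lower for 25 (2073 and 2803). The granzyme-processing proteases CTSH (2.87) and CTSC (2.38) and the sorting receptor IGF2R (1.96) led those higher than in NK cells.

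Inside the gates, cycling NK cells had 0 of 38 tested genes higher and 6 lower (482 and 563 of all 5362 genes), with SYTL2 (-0.74), ZEB2 (-0.70) and SYTL3 (-0.62) lowest. Other T cells with CXCL13 had 5 higher, among them CTSL (1.31), CTSH (1.08) and IFNG (0.89), and 15 lower, among them ZNF683 (-1.82), XCL2 (-1.68) and EOMES (-1.56), where 459 and 761 of all 10775 genes were. These shares were not compared by a test.

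Maraviroc was compared with no treatment in each gate over mice, with the reaction as a term, and 0 members were called in any gate by edgeR's quasi-likelihood test. In NK cells 0% of 5563 genes were called and 188 had an unadjusted p under 0.05, with the members between -0.26 (GZMM) and -0.04 (GZMB) and a median of -0.08 against -0.01 for all genes. In other T cells 0% of 9353 genes were called and 325 had an unadjusted p under 0.05, with the members between -0.37 and 0.16. In regulatory T cells 0% of 7883 genes were called and 361 had an unadjusted p under 0.05; of the 8 members tested (GZMH was too low) the estimates ran from -0.70 for GZMB, at 113 CPM in untreated and 54.7 in maraviroc mice, to 0.54 for NKG7. DESeq2 called 0 genes in NK cells and in other T cells, and 3 in regulatory T cells.

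In CD8 T cells GZMB had 956 ± 221 CPM in untreated mice (SD, n = 7, lowest 772, median 891, highest 1408) and 679 ± 135 in maraviroc mice (n = 7, lowest 539, median 618, highest 888). Of the 7 maraviroc mice 5 lay below every untreated mouse, and the groups overlapped. In reaction 1 the 3 maraviroc mice (539, 618 and 590.4 CPM) lay below the 4 untreated ones (lowest 772), and in reaction 2 the 4 maraviroc mice (between 568.04 and 888) overlapped the 3 untreated ones (998, 1013 and 803). The estimate was -0.52 ± 0.14 with an unadjusted p of 0.00138 and an adjusted p of 0.991 in edgeR's quasi-likelihood test over 7877 genes. GZMK had 148 ± 97.7 CPM in untreated and 273 ± 108 in maraviroc mice, with an estimate of 0.64 ± 0.26, which also missed the threshold (unadjusted p = 0.0245 in edgeR's test). GNLY averaged 7278 CPM in untreated and 4822 in maraviroc mice (-0.62 ± 0.38).

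In this gate 3 genes, or 0.0381%, were called, none of them a member, 309 had an unadjusted p under 0.05, and DESeq2 called 5. Without the filter on low counts, GZMB (-0.51, adjusted p = 0.00216), GZMK (0.63, 0.00143) and GNLY (-0.58, 5.62e-08) passed in edgeR's test, among 71 genes of 22559. Their estimates hardly moved from the main fit, while many low-count genes entered the estimate of the spread. GNLY overlapped between the groups (1742 to 9167 CPM in maraviroc, 3587 to 14910 in untreated mice). These calls are therefore not read as a difference between the groups. Among CD8 T cells with no NK list UMI, GZMK had -0.07 and GNLY 0.61 (the opposite signs), and GZMB was not among the members that changed sign. In a second added gate, at least 2 NK list UMIs with no CD8A, CD8B or FOXP3 made a cell an NK cell and T cells had fewer than 2. There GZMB had 0.33 and GNLY 0.43, and GZMK was not among the members that changed sign. The median over the members was -0.26 and over all genes 0.00.

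Plasmacytoid dendritic cells were compared in 2 untreated and 3 maraviroc mice, but R1-U4 was the 1 mouse of reaction 1, so that with the reaction as a term the estimates rest on the untreated mouse R2-U2 against the 3 maraviroc mice, and the lone mouse is assumed to vary like the others. Of the members 2 passed the filter, and GZMB had means of 3207 CPM in the untreated and 2736 CPM in the maraviroc mice, with the untreated mouse R1-U4 highest and the untreated mouse R2-U2 lowest. Its estimate, 0.20 ± 0.23 with the reaction term, was -0.21 without it. NKG7 had 95.5 and 133 CPM in the untreated mice and 43.6, 19.6 and 56.9 in the maraviroc mice, which did not overlap, with an estimate of -1.60 ± 0.46 and an adjusted p of 0.374 in edgeR's test, where 0.153% of 5220 genes were called. The difference of the maraviroc effect between the reactions was tested in the 4 other gates, and 0 members were called where 0% of genes were in each. The smallest unadjusted p was that of PRF1 in other T cells (-0.96 ± 0.32, unadjusted p = 0.00866, adjusted p = 0.996 in edgeR's test). Of the 43 pathway genes 0 were called for maraviroc in any gate.

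**Figure D5:**
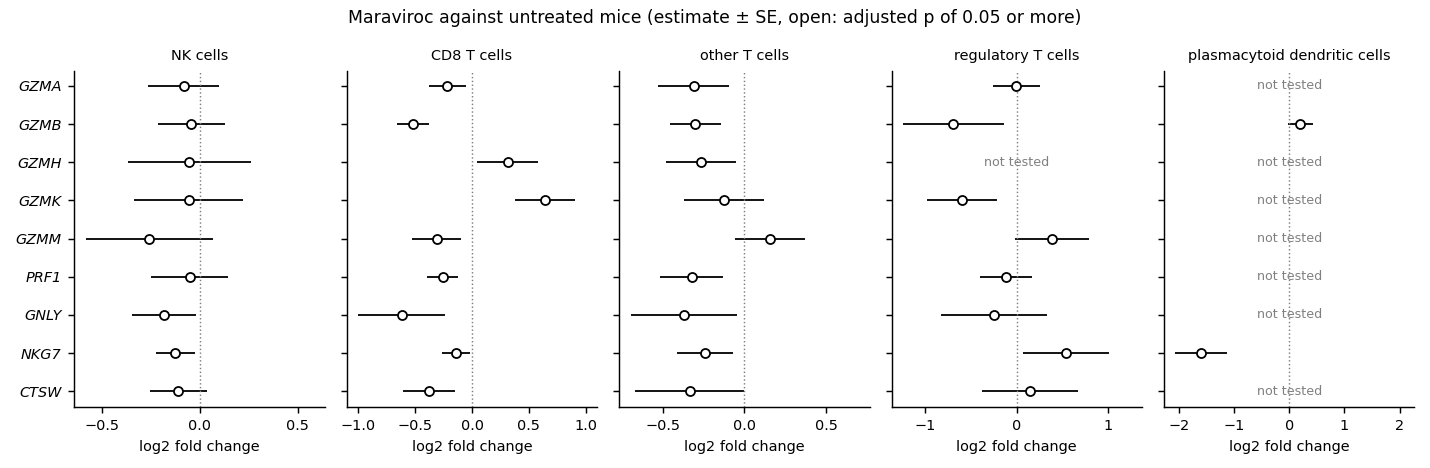
Log2 fold change of each gene between maraviroc and untreated mice in each gate (estimate ± SE from edgeR's quasi-likelihood fit with the reaction as a term; each panel has its own axis range). All points are open because no member passed an adjusted p of 0.05, genes below the count filter are marked as not tested, and GZMB in CD8 T cells lies at -0.52.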

How the data were processed

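Human CD45+ cells sorted from MDA-MB-231 tumors of 14 MISTRG mice were sequenced in 2 hashtag-labelled 10x Genomics 3′ reactions. The authors deposited raw counts per gene and barcode (UMIs) from Cell Ranger 9.0.1 on GRCh38, and named Seurat 5.1.0 and HTODemux for their own analysis, whose cell labels were not used here. From the deposited counts, barcodes with 601 to 6000 genes and under 12.5% mitochondrial UMIs were assigned to mice with HTODemux (positive quantile 0.99, Seurat 5.3.0). Doublets were removed by hashtags alone, so pairs of cells from 1 mouse remain. Reaction totals were 133089612 and 175447534 gene UMIs, and median UMIs per NK cell were 2812.5 and 7607. The barcodes kept from both reactions shared 31 sequences.

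UMIs were summed per mouse and gated type (at least 10 cells) and fitted with edgeR 4.0.16 in R 4.3.3 (TMM, filterByExpr, glmQLFTest, Benjamini-Hochberg over all genes, threshold 0.05). The mouse was the block between types, because sums of 1 mouse come from the same animal, and the reaction was a term for maraviroc. DESeq2 1.42.0, other gates, filters, limits and subsets of mice were alternatives. The fit for maraviroc in NK cells and a fit of NK against CD8 T cells alone were first tested on simulated data. The other fits were not. Named genes were the 9 members, and from a list of 43 pathway genes those with the largest called change of each sign. The members and lists were chosen with earlier results of these data known, and the division by the NK list was added after the values were seen. Sequences are not analysed here, and 1 planned comparison within CD8 T cells is not reported here.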

Additional observations from a re-analysis of the deposited data

Results flagged for a closer look

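In 72 groups of mice of 1 treatment, type and gene, the highest or lowest mouse was compared with its nearest neighbour by Dixon's criterion. Chance flags about 1 in 20 groups, and 8 were found, each for a highest mouse. In regulatory T cells the untreated mouse R1-U1 stood apart for CTSW (118 CPM, next 37.1), NKG7 (226 CPM, next 64.5) and PRF1 (82.8 CPM, next 31.1), and the maraviroc mouse R1-M1 for GZMB (187 CPM, next 74.0). Without R1-U1 all 9 members were still lower in regulatory T cells than in CD8 T cells and other T cells. The untreated mouse R1-U2 stood apart for GNLY in NK cells (19089.5 CPM, next 13419) and for GZMB in CD8 T cells (1408 CPM, next 1013). In maraviroc mice R1-M3 stood apart for GZMK in other T cells (135 CPM, next 88.1) and R2-M3 for PRF1 in CD8 T cells (151 CPM, next 126). The cause of these values was not tested.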

How the results depend on the processing

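Apart from leaving out mice, 1408 of the alternative values kept direction and side of the threshold, 34 passed it newly, 74 no longer passed and 62 changed sign. Most changes came from 4 alternatives: reaction 1 alone, the untreated mice alone, and 2 gates added after the data were seen, namely T cells with 0 NK list UMIs (called the strict T gate) and cells with 2 NK list UMIs and no CD8A, CD8B or FOXP3 counted as NK cells (called the NK list gate). The cause was not tested unless fewer cells or mice enter by construction. Without the mouse block, called members numbered 0 in place of 1 for cycling NK cells. No other count of called members or genes moved by over 1.5 times without that replicate block. Hashtag numbers are names and pair no mice between treatments. The number of cells limited plasmacytoid dendritic cells. With at least 20 cells a mouse, which 1 mouse had, maraviroc could not be fitted in them. Their contrasts with other types were not tried at this limit.

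For maraviroc, no member whose sign changed was called under either setting. In NK cells GZMH had 0.061 and GZMK 0.028 with DESeq2, GZMB 0.033, GZMH 0.032 and GZMK 0.46 in reaction 1 alone, and PRF1 0.087 in reaction 2 alone. With clear hashtags GZMB had 0.31, PRF1 0.014 and CTSW 0.0050, and with the NK list gate GZMM had 0.14. In CD8 T cells GZMM had 0.012 in reaction 1 alone. The strict T gate gave GZMA 0.016, GZMK -0.067, GNLY 0.61 and NKG7 0.012, and the NK list gate GZMA 0.012, GZMB 0.33, PRF1 0.066, GNLY 0.43 and NKG7 0.050. In regulatory T cells CTSW had -0.36 without the reaction term, -0.49 in reaction 2 alone, -0.32 with at least 20 cells a mouse, -0.52 with clear hashtags, -0.16 with 0 myeloid UMIs, -0.42 with the strict T gate and -0.22 with the NK list gate, while GNLY had 0.68 in reaction 1 alone and PRF1 0.019 with gate lists at 3 UMIs. In other T cells reaction 1 alone gave PRF1 0.15, GNLY 0.10, NKG7 0.094 and CTSW 0.16, and reaction 2 alone GZMK 0.022. The strict T gate gave GZMA 0.38, GZMB 0.48, GZMH 0.14, GZMK 0.41, GZMM -0.22, NKG7 0.090 and CTSW 0.14, and the NK list gate GZMA 0.20, GZMB 0.46, GZMH 0.12, GZMK 0.25, GZMM -0.21, GNLY 0.15, NKG7 0.32 and CTSW 0.22. In plasmacytoid dendritic cells GZMB had -0.21 without the reaction term. Without the count filter 3 members were called in CD8 T cells and 1, GNLY, in other T cells.

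Leaving out 1 mouse at a time changed signs for maraviroc in NK cells, with ranges of -0.21 to 0.019 for GZMA, -0.12 to 0.10 for GZMB, -0.15 to 0.25 for GZMH, -0.18 to 0.18 for GZMK, -0.38 to 0.045 for GZMM and -0.21 to 0.035 for PRF1. In other T cells it gave -0.54 to 0.087 for CTSW, -0.55 to 0.021 for GNLY and -0.27 to 0.074 for GZMK, and in regulatory T cells -0.15 to 0.77 for CTSW, -0.64 to 0.93 for GNLY and -0.24 to 0.11 for PRF1. GZMA in regulatory T cells, with an estimate of -0.0034 over all mice, ranged from -0.24 to 0.43. No member was called in these fits, and the genes called ranged from 1 to 5 in CD8 T cells, 0 to 5 in regulatory T cells and 10 to 51 in plasmacytoid dendritic cells. Without any 1 of the 5 mice with plasmacytoid dendritic cells, all 9 members stayed called against NK cells and other T cells.

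Between types, NK cells against CD8 T cells had 0 members called in untreated mice alone, and NK cells against other T cells 3 in reaction 1 alone, where GZMA had -0.054, and 2 in untreated mice alone. With the NK list gate GZMA (1.21) and GZMM (0.71) also passed in NK cells against other T cells. CD8 T cells against other T cells had 1 in reaction 1 alone, 2 in untreated mice alone and 9 with either added gate, with GZMA at 0.85 and GNLY at 1.32 for the strict T gate, and 0.93 and 1.13 for the NK list gate. GZMA had 0.032 there in reaction 2 alone. Cycling NK cells had 0 members called in reaction 1, in reaction 2, in untreated mice, with clear hashtags and with 0 myeloid UMIs, 2 with gate lists at 3 UMIs and 7 with the NK list gate. GZMB had 0.040 and PRF1 0.14 in reaction 1, and GZMB 0.088 and GZMK 0.068 with 0 myeloid UMIs. Other T cells with CXCL13 had 3 members called in reaction 1 alone and 3 with either added gate, with CTSW at 0.74 and 0.59.

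Mean levels in CD8 T cells moved by more than the SD with the strict T gate and the NK list gate to 269.8 and 305 CPM for CTSW, 431 and 513 for GZMB, 190.1 and 213 for GZMH, 424 and 441 for GZMK and 98.0 and 96.8 for GZMM. In other T cells they moved to 124 and 154 for CTSW, 965 and 1352 for GNLY, 628 and 665 for GZMA, 183 and 218 for GZMB, 201 and 282 for NKG7 and 36.6 and 39.0 for PRF1. In plasmacytoid dendritic cells all barcodes within the limits, doublets included, gave 35.7 CPM of CTSW, 351 of GNLY, 22.0 of GZMA and 6.11 of PRF1, and 0 myeloid UMIs gave 5.38 of GNLY. The difference in PRF1 between NK cells with and without GZMK was 38.0 points at 1000 UMIs.

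The number of all genes called was 2012 for NK against CD8 T cells (751 in reaction 1 alone, 792 in untreated mice, 1203 with 0 myeloid UMIs), 1423 for NK against other T cells (114 and 269 in these subsets, 2612 with the strict T gate, 3730 with the NK list gate), 3875 for CD8 T against regulatory T cells (1804, 2149, and 2342 with the strict T gate) and 1305 for CD8 T against other T cells (549, 388, 837 with clear hashtags, 856 with 0 myeloid UMIs). It was 3864 for regulatory T against other T cells (2194 and 2102), 4661 for plasmacytoid dendritic against NK cells (979, 2569, and 3081 with 0 myeloid UMIs) and 4876 against other T cells (981, 2810, 3168). Cycling NK cells had 1045 (448 in reaction 1, 436 in reaction 2, 268 in untreated mice, 353 with clear hashtags, 287 with 0 myeloid UMIs, 2913 with the NK list gate) and other T cells with CXCL13 1220 (72 in reaction 1, 259 in untreated mice). For maraviroc, dropping the count filter gave 88 in place of 0 in NK cells, 71 in place of 3 in CD8 T cells, 51 and 60 in place of 0 in regulatory and other T cells and 26 in place of 8 in plasmacytoid dendritic cells. DESeq2 gave 5 in CD8 T cells, 3 in regulatory T cells, 2 in plasmacytoid dendritic cells and 1 for the difference between reactions in other T cells. In CD8 T cells reaction 1 alone and both added gates gave 0, and reaction 2 alone, at least 20 cells a mouse and clear hashtags 1 each. In plasmacytoid dendritic cells above 1000 genes gave 13, and gate lists at 3 UMIs, 0 myeloid UMIs and at least 5 cells a mouse 0.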
